A study of Mus musculus with 12 samples.

Results

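The genes described here are the 7 ligands that activate the epidermal growth factor receptor (Areg, Ereg, Hbegf, Tgfa, Btc, Epgn and Egf) and 3 receptors of the ERBB family (Egfr, Erbb2 and Erbb3). These 10 genes were chosen by name, out of 32498 rows with a gene name. No cut-off on measured values was applied, but earlier results of these data were known at the choice. All 10 were detected in each library. The ligands are made as membrane-anchored precursors and are released by cell-surface proteases, and the released form binds EGFR on the same cell or on a neighbour. ERBB2 has no known ligand and acts as a partner of the other receptors, while ERBB3 binds neuregulins and has a weak kinase of its own. In stratified epithelium such as that of the tongue, this system drives keratinocyte growth and wound repair, and it is frequently active in squamous carcinoma.

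Bulk RNA-seq was performed on tongues of C57BL/6 mice, with 6 libraries from vehicle-treated and 6 from GA-treated animals. GA is gallic acid, a phenolic acid of plants. Mice of both groups drank 4NQO, a carcinogen that causes lesions of the oral epithelium, at 100 µg/mL for 16 weeks, followed by plain water until sacrifice. From week 4 one group was gavaged with GA at 100 mg/kg, 5 times per week, and the other with the same volume of vehicle. No group without 4NQO was analysed here, so the values compare 2 arms that both received the carcinogen. The labels describe the material as tumor and tumor-associated tissue, which mixes cell types, and they give replicate numbers without naming the animals. The p-values therefore measure the spread between these libraries.

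Levels are given in scaled FPKM, the deposited fragments per kilobase of exon, relative to the library total, after adjustment of the libraries to a common scale, so that levels of genes of different length can be compared. The length counts all annotated exons of a gene, from 1215 bases for Areg to 11326 for Egfr. Where a shorter transcript is expressed, the level is understated, and which transcripts were present was not examined. Total reads recovered from the FPKM values ranged from 18040728 to 21771182 in the vehicle group and from 21238232 to 25192537 in the GA group. Markers of the expected tissue were abundant: the summed level of 7 basal keratinocyte genes ranged from 4470 to 9424 FPKM in the vehicle group and from 2937 to 11727 in the GA group, and that of 10 suprabasal genes from 18509 to 51219 and from 15431 to 29286. The sum of 10 skeletal muscle genes ranged from 1463 to 11745 and from 2003 to 8939, so the amount of tongue muscle in the libraries differed widely. Lipf, a lipase of tongue glands, was high in vehicle libraries 3 and 5 and GA library 2 and at most 0.495 FPKM elsewhere. Reads on Y-linked genes were present in 4 of 6 vehicle libraries and 1 of 6 GA libraries, so sex was unevenly spread over the groups. In bulk tissue, fewer cells of a type and less RNA per cell cannot be told apart.

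Epgn, Ereg, Areg and Btc lie next to each other on mouse chromosome 5 (GRCm38, GENCODE M21), within 376 kb that hold no other protein-coding gene. Epgn (91027464 to 91035215, plus strand) is followed by Ereg (91074622 to 91093646, plus) after 39.4 kb. Areg (91139599 to 91148432, plus) begins 46.0 kb beyond Ereg. Btc (91357261 to 91402994) is encoded on the minus strand, 209 kb further on. Of the remaining genes, Tgfa lies on chromosome 6 (86195223 to 86275719, plus), Egf on chromosome 3 (129677565 to 129755316, minus), Egfr on chromosome 11 (16752203 to 16918158, plus), Erbb2 on chromosome 11 (98412470 to 98437716, plus) and Erbb3 on chromosome 10 (128567523 to 128589652, minus). In Egf, 9.82% of exon bases overlap other annotated genes, and whether reads were counted by strand is not given in the sources used here, so part of its low signal could belong to those genes. The overlap was 3.42% in Ereg, 1.82% in Tgfa, 0.173% in Erbb2 and 0 in the other 6.

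The 250 bases upstream of the RefSeq transcript start (GRCm38.p6) are shown for 3 ligands on which the results turn: Areg, which had the largest difference between the groups, Epgn, the most abundant ligand, and Egf, which varied against all the others. Capitals mark the letters of a cAMP response element (CRE, TGACGTCA) or of a TATA motif (TATAAA).
Areg, chr5:91139349-91139598, plus strand: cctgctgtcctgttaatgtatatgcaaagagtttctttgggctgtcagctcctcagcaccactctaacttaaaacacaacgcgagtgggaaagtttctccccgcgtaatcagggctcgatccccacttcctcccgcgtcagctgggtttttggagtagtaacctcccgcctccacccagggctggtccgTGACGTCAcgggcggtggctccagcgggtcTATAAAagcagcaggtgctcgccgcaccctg
Epgn, chr5:91027267-91027516, plus strand: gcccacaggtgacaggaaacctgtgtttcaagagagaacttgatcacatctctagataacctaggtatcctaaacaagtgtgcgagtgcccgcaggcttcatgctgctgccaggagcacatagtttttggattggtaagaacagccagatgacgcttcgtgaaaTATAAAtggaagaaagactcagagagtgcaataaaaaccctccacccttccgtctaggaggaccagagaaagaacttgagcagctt
Egf, chr3:129755323-129755572, minus strand: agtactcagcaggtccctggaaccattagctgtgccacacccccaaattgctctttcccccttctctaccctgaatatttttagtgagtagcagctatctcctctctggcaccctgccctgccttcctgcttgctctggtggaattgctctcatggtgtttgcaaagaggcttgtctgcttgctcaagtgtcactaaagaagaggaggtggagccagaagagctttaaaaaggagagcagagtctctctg
Entries were matched for 7 of the 10 genes, with 2 starts for Egf, and 4 motifs were searched on both strands. The CRE letters occurred in Areg only, beginning 61 bases before the start, and 1.55% of 32851 upstream sequences of the same length hold them. TATA letters began 31 bases before the RefSeq start of Areg and 86 bases before that of Epgn (12.4% of all). The Epgn window ends at 91027516, beyond the GENCODE start of the gene at 91027464. Its RefSeq start thus lies inside the GENCODE gene, and the TATA letters of Epgn lie nearer to the GENCODE start. The letters of AP-1 sites (TGANTCA, in 6.75% of all) and of the E-box (CACGTG, in 6.02%) were found in none of the 8 sequences. These matches describe the letters in these windows and were not tested for factor binding.

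Which ligands the tongue expressed was addressed first. Epgn, which encodes epigen, was the most abundant ligand mRNA, with a median of 36.5 FPKM over the 12 libraries (15.5 to 78.5). Ereg (epiregulin) followed with 17.2 (9.07 to 41.8), and Hbegf (heparin-binding EGF-like growth factor), Tgfa (transforming growth factor alpha) and Areg (amphiregulin) had medians of 9.08, 8.51 and 6.88. Btc (betacellulin) and Egf itself were scarce, at 1.17 (0.693 to 3.21) and 0.928 (0.267 to 2.56). Expressed as a share of the summed ligand FPKM, Epgn made up a median of 45.9% (32.1 to 59.98), Ereg 21.9%, Hbegf 10.8%, Tgfa 9.83% and Areg 7.89%, with 1.68% for Btc and 1.20% for Egf. Epgn was the largest component in every library.

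**Figure D1:**
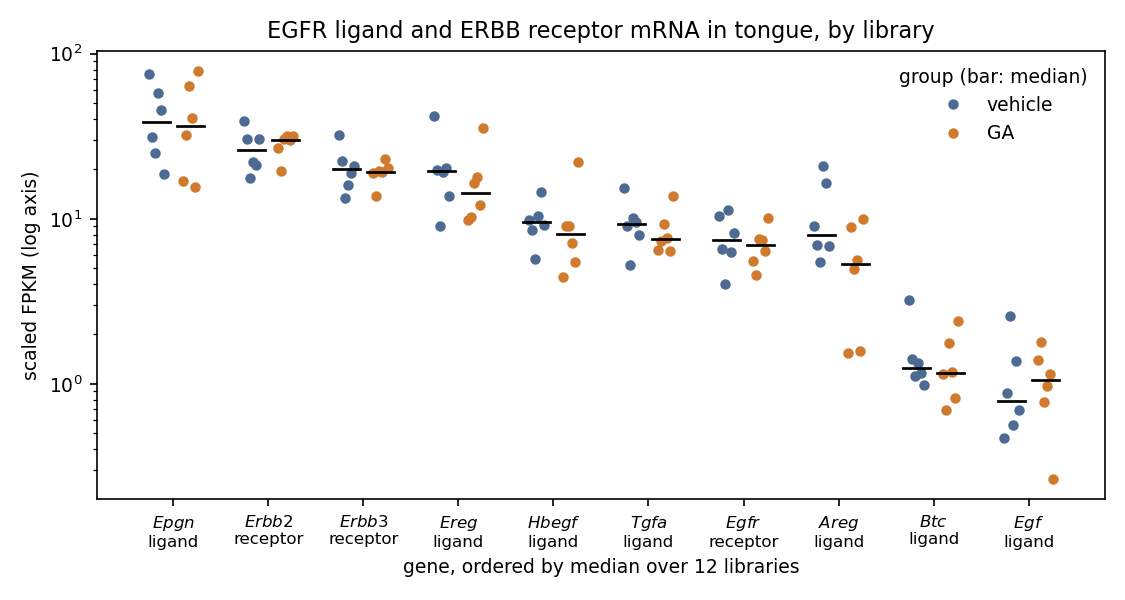
Scaled FPKM (log axis) of the 7 ligands and 3 receptors in the 6 vehicle and 6 GA libraries, 1 point per library, with black bars at the group medians. Epgn, Erbb2 and Erbb3 were highest and Btc and Egf lowest, and the points of the groups overlap for each gene.

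Among the receptors, Erbb2 had the highest median, 30.2 FPKM (17.6 to 39.1), followed by Erbb3 with 19.3 (13.3 to 32.3) and Egfr, the receptor that binds all 7 ligands, with 6.99 (4.01 to 11.3). The 10 genes were ordered by their medians, and each of the 9 neighbouring pairs was compared within libraries by an exact two-sided sign-flip permutation test, with p-values adjusted over the 9 pairs. Erbb2 exceeded Erbb3 in 12 of 12 libraries, by 0.47 ± 0.16 on the log2 scale (SD, n = 12, exact permutation adjusted p = 0.00146, from the smallest unadjusted p that the test can give, 0.000488). Ereg exceeded Hbegf by 0.93 ± 0.49 and Areg exceeded Btc by 2.21 ± 1.09, each in 12 of 12 libraries and with the same adjusted p. Tgfa was above Egfr in 9 of 12 libraries, by 0.29 ± 0.28 (exact permutation adjusted p = 0.0132). The remaining neighbours did not differ beyond their spread: Epgn and Erbb2 (adjusted p = 0.179 in the exact permutation test), Erbb3 and Ereg (0.316), Hbegf and Tgfa (0.800), Egfr and Areg (0.764), and Btc and Egf (0.316).

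**Figure D2:**
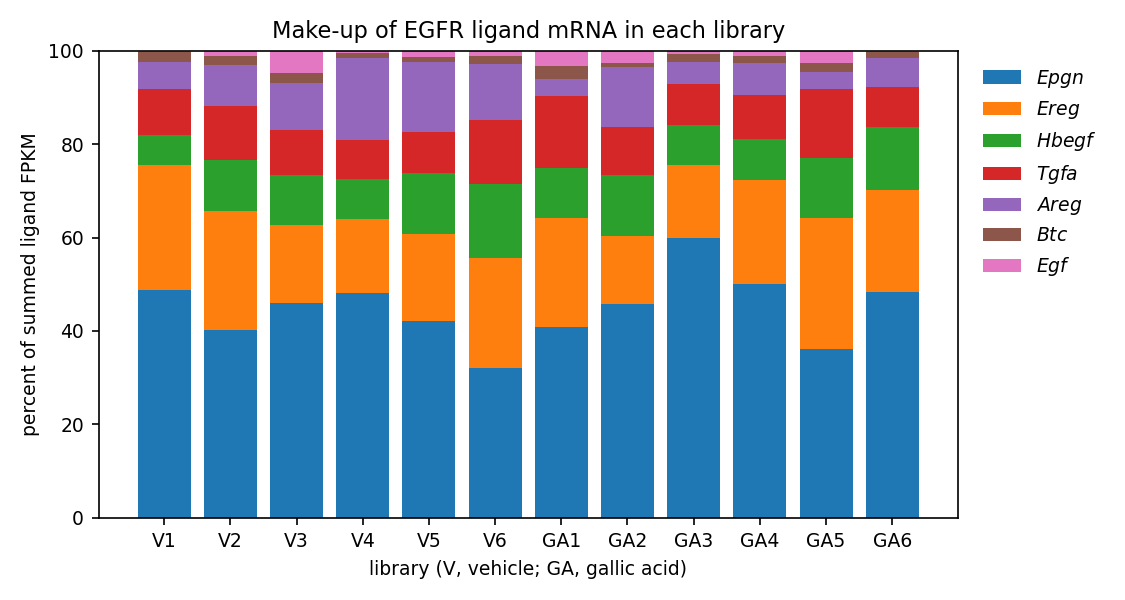
Percent of the summed ligand FPKM contributed by each of the 7 ligands, stacked to 100 for each vehicle (V) and GA library. Epgn is the largest part of each bar, and the Areg part ranges from 3.67% to 17.4%.

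The levels were then compared between GA and vehicle. A gene was called at an adjusted p below 0.1 (Benjamini-Hochberg, over 16852 genes tested with limma) provided that its log2 fold change reached 0.58 in either direction. None of the 10 genes was called, against a background of 0% of all genes. All 10 had an adjusted p of 0.9996 in limma. At an unadjusted limma p below 0.05, 1 of the 10 (Areg) passed, against a background of 2.12% (357 genes). Areg was also the 1 of 10 with an unadjusted p below 0.1 and a fold change past the limit, against a background of 1.98%. A log2 fold change below 0 (lower with GA) was seen for 8 of 10, against 52.1% of all genes. Since the 10 genes varied together, they do not count as 8 separate differences. Genes of the other lists given below may also vary together, so their counts in each direction are not separate differences either. Marker lists of the tissue moved as well, with 0 genes called: 7 of 10 muscle genes were higher with GA (median log2 fold change 0.51), and 6 of 7 basal and 9 of 10 suprabasal epithelial genes were lower (medians -0.22 and -0.12). The part of tissue composition in the differences of the 10 genes was not tested. Limma-voom on the recovered reads also called 0 genes, with 331 at an unadjusted p below 0.05.

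Areg encodes a low-affinity EGFR ligand induced by growth signals and in inflamed tissue. The study listed it, among other genes, as significantly lower with GA by its own count test (edgeR). Its values come from these same libraries and are not independent evidence of a change, and the limma fit used here did not call it. In the vehicle group Areg ranged from 5.50 to 20.99 FPKM (median 7.94). In the GA group it ranged from 1.54 to 9.95 (median 5.30). The highest values were those of vehicle libraries 4 and 5 (20.99 and 16.4) and the lowest those of GA libraries 1 and 5 (1.54 and 1.58), while 3 of 6 GA libraries lay within the vehicle range. The means of Areg were 10.9 ± 6.27 FPKM (SD, n = 6) and 5.43 ± 3.54 FPKM (SD, n = 6), in the same order. The log2 fold change was -1.15 (SE 0.51, 95% interval -2.25 to -0.049, unadjusted p = 0.0419 and adjusted p = 0.9996 in limma). The vehicle median exceeded 4 of 6 GA libraries. The exact two-sided permutation test over every assignment of the libraries to groups gave p = 0.0823, where the smallest possible p was 0.00216. Without the 3 libraries with high Lipf the log2 fold change was -1.37. Without GA library 6, which had the highest Areg of its group, the exact permutation p was 0.0390, and over all settings run it ranged from 0.0390 to 0.219.

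Other measurements were set beside Areg. The summed level of 10 neutrophil genes was lowest in the same GA libraries 1 and 5, at 695 and 219 FPKM, against 1112 to 2580 in the vehicle group and 1367 to 1835 in the other 4 GA libraries. This sum is carried by its most abundant genes. By the mean log2 level of the list, GA library 5 was still lowest (-0.30) but GA library 1 (0.56) was not low, lying within the vehicle range of -0.07 to 4.14, and vehicle libraries 5 and 4 were highest. Other lists also set GA libraries 1 and 5 apart. Their summed basal epithelial levels, 2937 and 3610 FPKM, were the lowest of the 12 libraries. Their sums of 4 mast cell genes, 50.0 and 24.7 FPKM, were the highest. All 9 of the neutrophil genes that could be tested were lower with GA, against 52.1% of all genes. Their median log2 fold change was -0.77, against -0.01 over all genes, and 0 were called. With the neutrophil level as a covariate, the log2 fold change of Areg was -0.76 (limma unadjusted p = 0.106). With a term for Y-linked reads it was -1.54, and permutation of the libraries within those strata gave an exact p of 0.0571. Within the 7 libraries without Y-linked reads (2 vehicle, 5 GA) the log2 difference was -0.999 (exact permutation p = 0.333), and with Y-linked reads, where GA had 1 library, it was -2.51 with no test. Whether neutrophil content, the content of other cell types or sex had a part in the Areg difference was not tested.

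Areg was also set against each of the other 6 ligands in the same library, a ratio that does not depend on how the libraries are scaled. The Areg to Hbegf ratio ranged from 0.752 to 2.02 with vehicle (median 0.937) and from 0.288 to 0.979 with GA (median 0.499) (exact permutation p = 0.0216, 0.0779 adjusted over 6 ratios). The Areg to Epgn ratio had medians of 0.289 and 0.114, a log2 difference of -1.05 (exact permutation p = 0.0260, adjusted 0.0779). Ratios to Tgfa, Btc, Ereg and Egf were lower with GA by 0.90 to 1.18 on the log2 scale, with exact permutation p of 0.0649 to 0.236. None of the 6 passed an adjusted p of 0.05. As a share of all ligand mRNA, Areg had a median of 11.0% with vehicle (5.78 to 17.4) and 5.42% with GA (3.67 to 12.7).

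Ereg, the neighbour of Areg on the chromosome and a broad-range ligand of EGFR and ERBB4, ranged from 9.07 to 41.8 FPKM with vehicle (median 19.5) and from 9.80 to 35.3 with GA (median 14.3). Its log2 fold change was -0.27 (SE 0.37, exact permutation p = 0.509), and 6 of 6 GA libraries lay within the vehicle range. Epgn ranged from 18.6 to 75.8 (median 38.5) and from 15.5 to 78.5 (median 36.5). Its log2 fold change was -0.12 (SE 0.45, exact permutation p = 0.803), so the most abundant ligand showed a difference smaller than the spread between libraries, with an interval of -1.10 to 0.85. Btc, which binds EGFR and ERBB4, ranged from 0.987 to 3.21 (median 1.25) and from 0.693 to 2.42 (median 1.16), with a log2 fold change of -0.20 (SE 0.33, exact permutation p = 0.584). Thus, of the 4 clustered genes, Areg had the largest difference and the other 3 had intervals that span 0.

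Hbegf, a ligand prominent in epithelial wound closure, ranged from 5.70 to 14.4 FPKM with vehicle (median 9.51) and from 4.42 to 22.0 with GA (median 8.13). GA library 6 held the highest value and GA library 1 the lowest of the 12, so the GA group enclosed the vehicle group (log2 fold change -0.17, SE 0.34, exact permutation p = 0.656). Tgfa, an autocrine ligand of keratinocytes, ranged from 5.26 to 15.5 (median 9.27) and from 6.35 to 13.8 (median 7.49), with a log2 fold change of -0.15 (SE 0.24, exact permutation p = 0.565). For both genes 5 of 6 GA libraries lay under the vehicle median, as was Ereg, with GA library 6 above it for Hbegf and Tgfa. Egf, the founding ligand of the family, ranged from 0.470 to 2.56 (median 0.788) and from 0.267 to 1.79 (median 1.06), with a log2 fold change of 0.01 (SE 0.44, exact permutation p = 0.987).

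**Figure D3:**
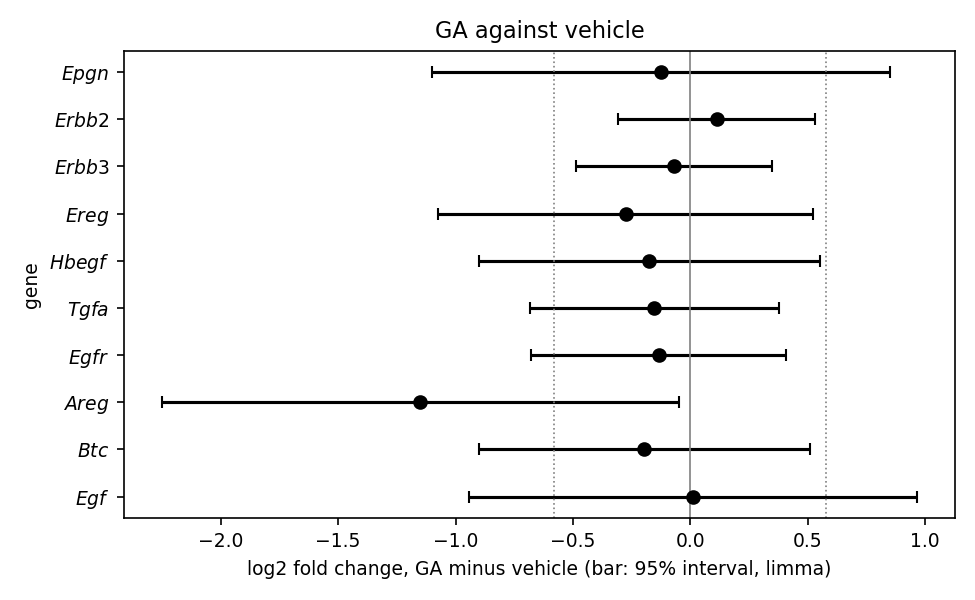
Log2 fold change of GA minus vehicle for the 10 genes in limma (points) with 95% intervals (bars) and dotted lines at ±0.58. The interval of Areg (-2.25 to -0.049) lies below 0, and the other 9 intervals include 0.

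Erbb2 and Erbb3 had the smallest standard errors of the 10 genes. Erbb2 ranged from 17.6 to 39.1 FPKM with vehicle (median 26.2) and from 19.4 to 31.8 with GA (median 30.2). Its log2 fold change of 0.11 (SE 0.19, 95% interval -0.31 to 0.53, exact permutation p = 0.582) was accompanied by 5 of 6 GA libraries above the vehicle median. With the level of the epithelial lists as a covariate it was 0.32 (unadjusted p = 0.0184 and adjusted p = 0.9943 in limma), the only one of the 10 genes with an unadjusted p below 0.05 in that fit, where 714 genes in all had one. Erbb3 ranged from 13.3 to 32.3 (median 19.9) and from 13.7 to 23.0 (median 19.3), with a log2 fold change of -0.07 (SE 0.19, interval -0.49 to 0.35, exact permutation p = 0.747). Egfr ranged from 4.01 to 11.3 (median 7.39) and from 4.56 to 10.1 (median 6.90), with a log2 fold change of -0.14 (SE 0.25, interval -0.68 to 0.41, exact permutation p = 0.641). All 6 GA libraries lay within the vehicle range for each of the 3 receptors. Summed over receptors, the level was 34.9 to 81.7 FPKM with vehicle (median 54.3) and 37.7 to 61.8 with GA (median 57.8). Summed over ligands it was 54.1 to 156 (median 93.4) and 41.8 to 162 (median 75.9).

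Other genes of the pathway were read from the same fit. Of 37 such genes 36 could be tested and 0 were called, with 0 at an unadjusted limma p below 0.05. Among the other ERBB ligands and receptor, 1 of 4 tested genes was higher and 3 lower with GA (median log2 fold change -0.17). Erbb4, the neuregulin receptor, was low, at 0.022 to 0.359 FPKM with vehicle and 0.102 to 0.550 with GA (log2 fold change 0.63, SE 0.41). Nrg1, a ligand of ERBB3, had medians of 1.29 and 0.906 FPKM (-0.39), Nrg4 and Nrg2 had log2 fold changes of -0.33 and -0.01, and Nrg3 was below the limit for testing. For the low genes these values depend on the pseudocount: with 0.01 in place of 0.1 the log2 fold change was 1.16 for Erbb4 and -1.10 for Nrg4, and with limma-voom it was 1.26 and -1.51 (unadjusted p = 0.0792 and 0.141).

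The proteases that release the ligands were well expressed. Adam17, the main sheddase of Areg, Ereg, Hbegf, Tgfa and Epgn, had medians of 11.1 FPKM with vehicle and 9.51 with GA (log2 fold change -0.13). Adam10, which releases Egf and Btc, had medians of 25.5 and 21.3 (-0.16), and the rhomboid-like partners of Adam17, Rhbdf1 and Rhbdf2, had log2 fold changes of 0.30 and -0.19. Of these 4 genes 1 was higher and 3 were lower (median -0.14).

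Feedback inhibitors of the receptors and of the downstream kinase cascade were lower with GA for 9 of 11 genes, against 52.1% of all genes. Their median log2 fold change was -0.08. Without GA library 2, 5 of 11 were lower (median 0.01). Errfi1, which binds and inhibits EGFR, ranged from 8.97 to 19.3 FPKM with vehicle (median 13.7) and from 7.33 to 12.1 with GA (median 11.1). All 6 GA libraries lay under the vehicle median, with a log2 fold change of -0.37 (SE 0.20, exact permutation p = 0.128). Spry1, an inhibitor of receptor tyrosine kinase signalling, also lay under it in 6 of 6 (-0.29, SE 0.19, exact permutation p = 0.199), while Spry2 and Spred1 each had -0.20. Among adaptors, 3 of 5 were lower (median -0.01). Shc1, which links receptors to RAS, lay under the vehicle median in 6 of 6 (-0.15, SE 0.09, exact permutation p = 0.106), Gab1 had -0.29, Sos1 0.06 and Ptpn11 -0.01.

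Transcripts commonly induced by EGFR signalling were lower for 10 of 12 genes, against 52.1% of all genes. Their median log2 fold change was -0.26, against -0.01 over all genes, and 0 were called. Phlda1 ranged from 13.4 to 31.4 FPKM with vehicle and from 5.41 to 30.9 with GA (log2 fold change -0.60, SE 0.40, exact permutation p = 0.201). Dusp6, a phosphatase that turns off ERK, ranged from 10.7 to 36.3 and from 7.31 to 20.9 (-0.55, SE 0.37, exact permutation p = 0.208). Plaur and Dusp4 had log2 fold changes of -0.36 and -0.35. With the neutrophil covariate 6 of 12 targets were lower (median -0.03), and the values were -0.34 for Phlda1, -0.26 for Dusp6, 0.54 for Plaur and 0.18 for Dusp4. With the term for Y-linked reads 11 of 12 were lower (median -0.44), with -0.997 for Phlda1 and -0.93 for Dusp6 (unadjusted p = 0.0373 and 0.0361 and adjusted p = 0.9896 in limma). Without vehicle library 4, 6 of 12 were lower (median -0.10), and without GA library 1, 7 of 12 (median -0.07). The groups overlapped for each of these genes.

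Whether ligands and receptors varied together was examined over the 12 libraries with Pearson's r and Spearman's rho on the log2 scale, each with a two-sided permutation test of 100000 resamples. Of the 45 pairs, 21 had an adjusted p below 0.05 for r (adjusted over 45 pairs), 16 positive and 5 negative. The weakest of these had an absolute r of 0.657, a value reached by 12.2% of all gene pairs when genes averaging 1 FPKM or more are paired, so strong correlations were common in these libraries. Epgn, Ereg, Hbegf, Tgfa, Areg and Btc were positively related in 15 of 15 pairs (r = 0.29 to 0.96, 11 past the threshold). Egf was negatively related to the other 6 ligands in 6 of 6 pairs (3 past the threshold) and to the receptors in 3 of 3 (2 past the threshold). These signs were the same within the vehicle group and within the GA group for each of those 24 pairs.

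**Figure D4:**
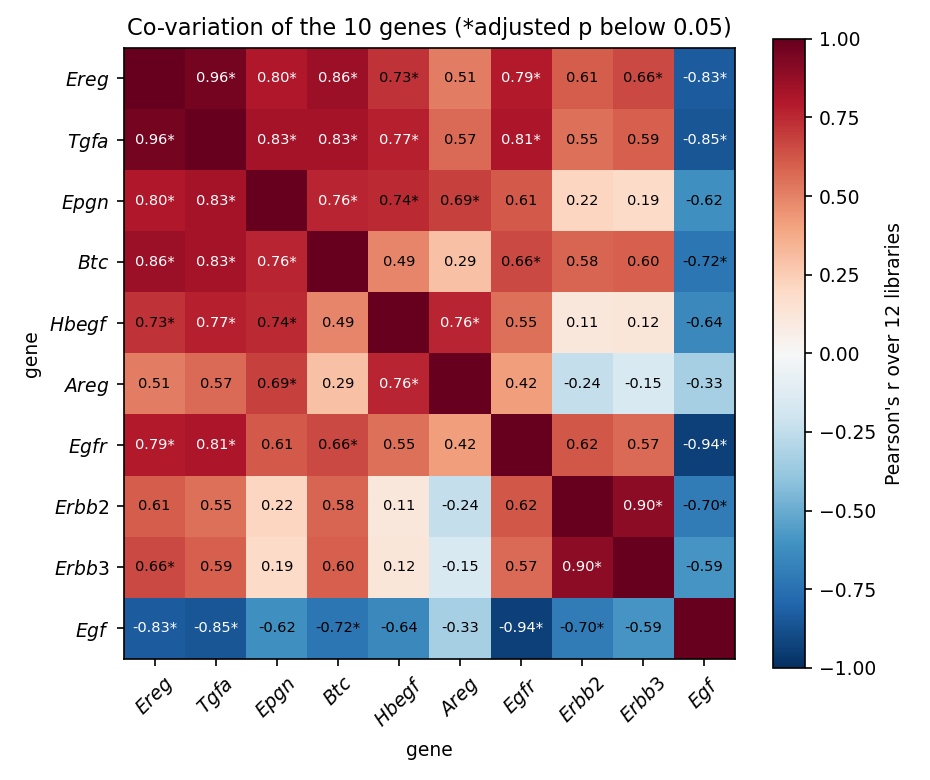
Pearson's r of log2(scaled FPKM + 0.1) over 12 libraries for each pair of the 10 genes, in red where positive and blue where negative, with asterisks at a permutation adjusted p below 0.05. The ligands other than Egf form a red block, Erbb2 and Erbb3 form a pair, and the Egf row is blue against all 9 other genes.

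The closest pair of ligands was Ereg and Tgfa, which lie on different chromosomes, with r = 0.96 and rho = 0.92 (permutation adjusted p = 0.00045 and 0.00203). Without the 2 libraries farthest from the median of the first-named gene, here Ereg, r was 0.88. Within the 7 libraries lacking Y-linked reads it was 0.91. The 2 libraries left out in this way depend on the first-named gene and differ between pairs. Areg was most closely related to Hbegf (r = 0.76, rho = 0.90, permutation adjusted p = 0.0155 and 0.00225). Without the 2 farthest libraries that r was 0.56, and it was 0.77 within the vehicle group, 0.84 within the GA group and 0.78 without Y-linked libraries. Areg and Epgn had r = 0.69 and rho = 0.66 (permutation adjusted p = 0.0278 and 0.0477). Their r was 0.35 without the 2 libraries farthest from the Areg median, GA libraries 1 and 5. Within the vehicle group, which holds neither, it was 0.65, and within the GA group 0.84. No relation of Areg to Erbb2 was detected at this number of libraries (r = -0.24, rho = 0.03, permutation adjusted p = 0.507 and 0.941), although this value was different with the muscle level taken out (r = -0.77).

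Egf and Egfr had the strongest negative relation, with r = -0.94 and rho = -0.97 (permutation adjusted p = 0.00045 for each). It was -0.95 without the 2 farthest libraries, -0.96 within the vehicle group, -0.95 within the GA group, -0.94 within the libraries lacking Y-linked reads and -0.87 in the 9 libraries with low Lipf. Erbb2 and Erbb3 rose and fell together (r = 0.90, rho = 0.79, permutation adjusted p = 0.0009 and 0.0149), with r = 0.79 without the 2 farthest libraries and 0.87 in the 9 libraries with low Lipf. The relation of Egfr to that pair varied with the libraries kept. Egfr with Erbb2 had r = 0.62 over 12 libraries (rho = 0.68, permutation adjusted p = 0.0610 and 0.0411). That r was 0.82 without the 2 farthest libraries, 0.59 within the vehicle group and 0.83 within the GA group. It was 0.81 within the libraries lacking Y-linked reads, but 0.01 in the 9 with low Lipf. Likewise, the r of Egf with Erbb2 was -0.70 over 12 libraries (rho = -0.74, permutation adjusted p = 0.0278 and 0.0222). It was -0.77 within the vehicle group and -0.66 within the GA group, but -0.22 in the 9 libraries.

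Vehicle library 1 and GA library 6 held the lowest muscle signal and, as a pair, high levels of most ligands. Without both, an alternative chosen after the data were seen, 5 of 45 pairs had an adjusted p below 0.05, all of them among the 21: Egf with Egfr (r = -0.96), Ereg with Tgfa (0.88), Erbb2 with Erbb3 (0.88), Areg with Hbegf (0.87) and Hbegf with Tgfa (0.82).

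The levels were next set beside marker lists of the tissue compartments, as a description over the same 12 libraries. The mean level of the skeletal muscle list had an r of -0.93 with Ereg, -0.89 with Tgfa, -0.89 with Egfr, -0.79 with Btc, -0.76 with Erbb3 and -0.74 with Erbb2, and of 0.87 with Egf. Without the 2 libraries farthest from the median of the list, r was -0.38 for Erbb3 and -0.44 for Erbb2. It was then -0.90 for Ereg, -0.83 for Egfr, -0.82 for Btc, -0.76 for Tgfa and 0.82 for Egf. An absolute r of at least 0.7 with this list was found for 25.5% of 12166 genes, so a relation to muscle content was common. Within the vehicle group the r of muscle with Egf, Egfr and Ereg was 0.85, -0.84 and -0.97, and within the GA group 0.92, -0.99 and -0.92. Areg (-0.33), Hbegf (-0.56) and Epgn (-0.68) were less closely related to muscle over the 12 libraries.

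**Figure D5:**
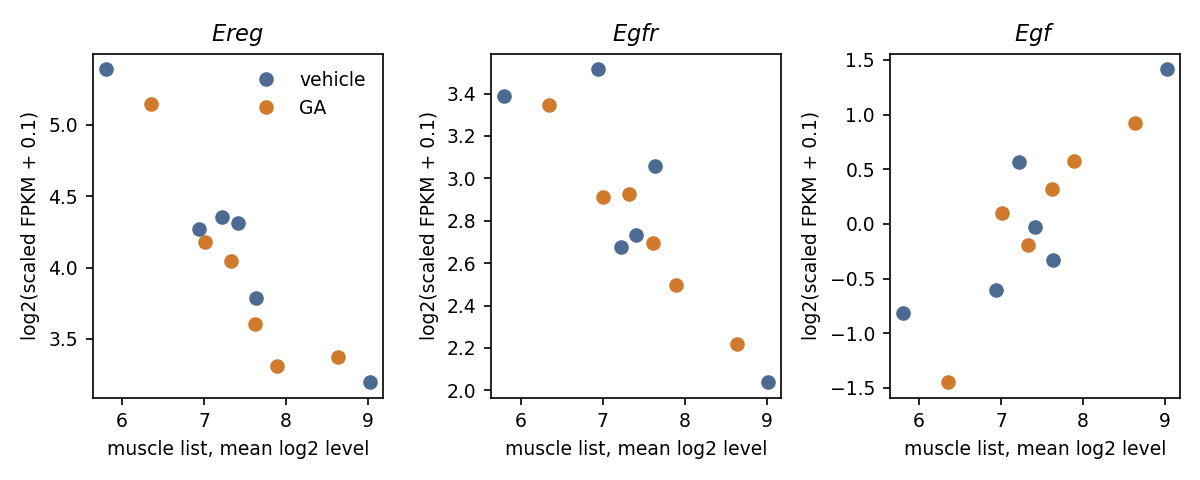
Log2(scaled FPKM + 0.1) of Ereg, Egfr and Egf against the mean log2 level of 10 skeletal muscle genes, 1 point per library in the vehicle and GA groups. Ereg and Egfr decline and Egf increases from low to high muscle signal, and the groups lie along the same course.

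When the muscle level was taken out of each gene by regression, also chosen after the data were seen, 0 of 45 pairs had a permutation adjusted p below 0.05, with 16 at an unadjusted p below 0.05 against 30 before. The r of Ereg with Tgfa was then 0.77, that of Erbb2 with Erbb3 0.76, of Areg with Hbegf 0.73 and of Egf with Egfr -0.72 (permutation adjusted p of 0.0583 to 0.0631). Areg with Erbb2, which had -0.24 before, then had r = -0.77, the lowest of the 45, and Hbegf with Tgfa had 0.74 (permutation adjusted p = 0.0583 for each). The sign was kept in 30 of 45 pairs.

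The epithelial lists were examined in the same way. Hbegf and Egfr had an r of 0.84 and 0.77 with the basal list, whose members include Krt5 and Krt14, against 0.16 for Erbb2 and 0.12 for Erbb3. With the suprabasal list, Erbb3 and Erbb2 had 0.79 and 0.67, against 0.35 for Egfr and -0.23 for Hbegf. The suprabasal values of Erbb3 and Erbb2 were 0.93 and 0.87 within the vehicle group but 0.42 and 0.43 within the GA group. Without the 2 libraries farthest from the median of that list they were 0.82 and 0.94. An absolute r of at least 0.7 was reached by 20.9% of 12166 genes with the basal list and by 14.7% with the suprabasal list. The difference between these coefficients was not tested. Areg had its largest r, 0.82, with 13 immediate early genes, which cells switch on quickly after stimulation or handling, and 1.28% of 12166 genes reached an absolute r of 0.7 with that list. This list was lower with GA in 12 of 13 genes, against 52.1% of all genes (median log2 fold change -0.22, 0 called). Of the 13, 2 had an unadjusted limma p below 0.05, against 2.12% of all genes. Areg had an r of 0.69 with the basal list, 0.68 with the neutrophil list and -0.68 with the mast cell list. Without the 2 libraries farthest from the median of each list, these were 0.62, 0.38 and -0.06, in the same order. Egf and Erbb2 had an r of 0.71 and -0.83 with the minor salivary gland list, which was high in 3 libraries, so those values rest largely on these 3.

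The genes most like each member were sought among 12166 genes averaging 1 FPKM or more, by r over 12 libraries. Areg was closest to Tcim (0.93), Pla2g4a (0.93), which encodes a phospholipase that releases arachidonic acid, and Phlda1 (0.92). Ereg was closest to Map3k9, Rab1a and Zfp131 (0.96 to 0.97), and Tgfa to Ereg itself (0.96), Mxd1 and Itsn2. Hbegf was nearest to Cdk17, Homer3 and Tuba1c (0.95 to 0.96), Btc to Alpk1, Arhgap27 and Klk12 (0.91 to 0.93), and Epgn to Zfp182 and Rab10os (0.94 and 0.91). Egf was closest to 1110065P20Rik, Ntn1 and Rab4a (0.96 each). Among the receptors, Egfr was nearest to Spg21, Efna5 and Pcyox1 (0.96 to 0.98), Erbb2 to Sh3gl2, Kat6a and Evpl (0.96 to 0.98), the last encoding envoplakin of the cornified envelope, and Erbb3 to Crybg1, Mall and Ccdc120 (0.96 to 0.97). With 12 libraries and this many genes, values of this size arise for many genes.

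The depth behind these values was uneven. The least covered members were Areg with 39 to 593 recovered reads per library, Btc with 72 to 286 and Egf with 79 to 567, whereas Erbb2 had 1794 to 4306. Intervals and p-values rest on the spread between libraries and cover counting error only in so far as it adds to that spread.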

How the data were processed

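Tongue RNA was profiled by bulk RNA-seq in 12 libraries, 6 vehicle and 6 GA. Per the labels and the methods of the study, the authors mapped reads to the mm10 build (HISAT2), assigned unique alignments to genes (featureCounts) and deposited FPKM, in which reads are divided by library total and gene length. The strand setting is not given in the sources used here. The tables hold 55463 rows, and 41.4% without a gene name were left out. Reads were recovered from the FPKM steps with GENCODE M21 exon lengths: 96.7% to 98.3% of low values came out whole (tolerance 0.02 reads). A trimmed mean of M values set the library scale (factors 0.882 to 1.09). Within groups, Spearman correlations between libraries were 0.824 to 0.971.

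Genes averaging 0.1 FPKM or more were fitted with limma 3.58.1 (R 4.3.3, trend) on log2(scaled FPKM + 0.1), on which changes of weakly expressed genes appear smaller than they are. Adjusted p-values are Benjamini-Hochberg over all 16852 genes. The count test of the study (edgeR) was not the main test, since the deposited values are not counts. It was also not run on the recovered reads, so whether it would call Areg there was not tested. Exact permutation tests used every assignment of 6 of the 12 libraries. Permutation tests of correlations used numpy 2.4.6, with ranks from scipy 1.17.1. The fit was tested on simulated data. Besides the 10 members, up to 4 tested genes per pathway list were named, those with the largest absolute log2 fold change, and the 3 genes most like each member, of which 1 is not reported here. Adam17 and Adam10 belong to a list of 4. Members and lists were chosen with earlier results of these data known. Alternatives were other pseudocounts, filters and scalings, covariates for Y-linked reads and for neutrophil, epithelium and muscle levels, limma-voom on recovered reads, a replicate block and omission of libraries. Promoter sequences are from RefSeq.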

Additional observations from a re-analysis of the deposited data

Results flagged for a closer look

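In 3 cases a library stood apart from the other 5 of its group by Dixon's criterion, applied on the log2 scale. These cases were out of 20 combinations of gene and group (15%, where chance flags about 1 in 20). The gaps are parts of the group's range on the log2 scale, and the flags hold for that scale only. Btc in vehicle library 1 was 3.21 FPKM, the highest of its group, against 1.41 for the next value (gap 0.705 of the log2 range). Erbb2 in GA library 2 was 19.4 FPKM against 26.8 for the next lowest (gap 0.652 of the log2 range). Erbb3 in the same library was 13.7 FPKM against 19.1 (gap 0.638 of the log2 range). GA library 2 was the only GA library with high Lipf, and vehicle library 1 had the lowest muscle signal of the 12 libraries. The part of gland or muscle tissue in these values was not tested.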

How the results depend on the processing

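No member and no pathway gene was called by limma under any alternative that kept the adjusted p. At an unadjusted p below 0.1 with the same fold change limit, 334 genes and 1 member (Areg) passed. With 1 library left out, 0 to 1 genes were called, the 1 being Gm25290 without vehicle library 4 (named after its values were seen). Members with an exact permutation p below 0.05 numbered 0 to 1 (Areg, without GA library 6). Exact permutation tests were not run for the neutrophil, epithelium and muscle terms, the filters and limma-voom.

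Areg stayed lower with GA under all 26 alternatives. With 1 library left out its log2 fold change ranged from -1.39 (without GA library 6) to -0.86 (without GA library 1), and its unadjusted limma p was above 0.05 without vehicle library 1, 4 or 5 or GA library 1, 3 or 5, and also with the epithelium term (0.0758), the replicate block (0.0687), the neutrophil term (0.106) and FPKM as deposited (0.05004). The other log2 fold changes were close to 0 and several changed sign. With the epithelium term they were 0.0851 for Ereg, 0.0694 for Tgfa, 0.0859 for Btc, 0.17 for Epgn, -0.38 for Egf, 0.11 for Egfr and 0.14 for Erbb3. Egf was -0.0931 with the muscle term and -0.0356 with limma-voom. Erbb2 was -0.0436 with the neutrophil term. Erbb3 was 0.0525 without vehicle library 1 and GA library 6. With 1 library left out the ranges were -0.45 to 0.0035 for Hbegf, -0.38 to 0.0298 for Btc, -0.36 to 0.11 for Epgn, -0.16 to 0.31 for Egf and -0.18 to 0.0715 for Erbb3. The cause was not tested.

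The number of correlated pairs was 5 without vehicle library 1 and GA library 6, 0 with the muscle level taken out, and 17 to 26 with 1 library left out. Neighbours in the order of levels that differed numbered 3 to 4 with 1 library left out. Replicate numbers did not pair the libraries: deviations of same-numbered libraries had r of -0.50 to 0.12, and 0 of 6 were closest to their own number. With the replicate number as a block, 0 members were called and the exact permutation p of Areg was 0.219.

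Depth limits Areg, Btc and Egf, which had under 100 reads in at least 1 library.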
